A study of Mus musculus with 12 samples.

Results

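The 10 genes described here encode the receptors, calcium channels and granule proteins through which pancreatic acinar cells answer a secretagogue, a signal that makes them release enzymes. They are the receptors Cckar, Chrm1 and Chrm3, the calcium release channels Itpr2 and Itpr3, the granule GTPases Rab3d and Rab27b, and the fusion proteins Vamp2, Vamp8 and Stx3. Each gene was read from its probe set with a single gene symbol and, where there were several, the highest mean over 12 arrays. All 10 of the 10 listed genes were found among 22180 measured genes. The study concerns the epigenetic landscape in acinar reprogramming and pancreatic carcinogenesis, and here its arrays of total RNA from mouse pancreatic cells were compared.

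Each of the 4 groups held 3 arrays, and every sample was labelled C57Bl6/J wildtype. The tumor group was low-passage tumor cells grown in standard medium, and its 3 samples share 1 code in their descriptions, without saying whether they are 1 line. The ADM group was acinar-to-ductal metaplasia kept in 3D collagen for 7 days in the presence of 50 ng/ml Tgf-alpha, which activates the EGF receptor. Embryonic acinar cells and adult acinar cells had both been isolated by digestion and used for RNA directly, and no age is given for either. Whether replicates were separate animals, cultures or hybridisations is not stated, so the p-values reflect array-to-array spread and no more.

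In an acinar cell, cholecystokinin and acetylcholine bind receptors coupled to the G protein Gq, which activates phospholipase C. The inositol trisphosphate made by this enzyme opens channels in the endoplasmic reticulum, and the calcium released at the apical pole triggers fusion of zymogen granules with the apical membrane. Rab GTPases on the granule prepare it for docking, and SNARE proteins on granule and target membranes then pair to drive fusion.

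The values were log2 signals as deposited, and a background level of 3.62 was set from 1394 genes of olfactory and vomeronasal receptors, at the 95th percentile of their group means. Calls of higher or lower needed an adjusted p under 0.05 (limma, Benjamini-Hochberg adjustment over all genes) and a log2 change of 1 or more in size. Of 12 measured markers of acinar cells, 8 or 9 were above background on tumor arrays, 11 or 12 on ADM arrays and all 12 on embryonic and adult arrays. In tumor cells the group means of Amy2b, Cel, Ptf1a, Gp2 and Sycn lay at or under background. The markers averaged 3.65 to 3.97 log2 units on tumor arrays, 7.42 to 8.45 on ADM arrays, 10.34 to 10.98 on embryonic arrays and 11.79 to 11.84 on adult arrays. In bulk RNA, fewer cells of a type and less RNA per cell cannot be told apart.

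**Figure D1:**
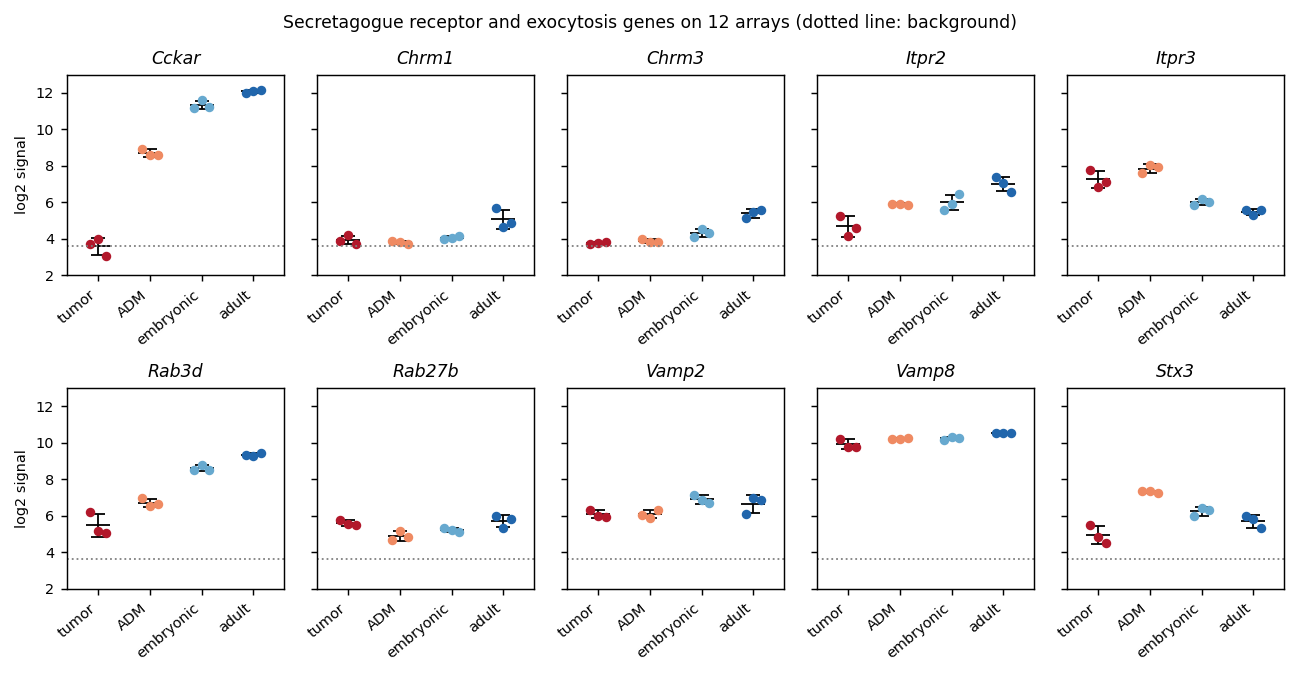
Log2 signal of the 10 genes on each of 12 arrays (points), with the group mean and SD (bars, n = 3) and background as a dotted line at 3.62. Cckar and Rab3d are lowest in the tumor group and highest in the adult group, Itpr3 and Stx3 are highest in ADM, and Vamp8 stays between 9.75 and 10.53 on all 12 arrays.

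Measured against adult acinar cells, ADM cultures had lower signal of the 3 receptors, Itpr2 and Rab3d, and higher signal of Itpr3 and Stx3. Thus 5 of the 10 genes were called lower, where 4.22% of all genes were, and 2 were called higher, where 12.5% were. Tumor cells had Cckar, Chrm1, Chrm3, Itpr2 and Rab3d called lower (5 of 10, against 5.96% of all genes) and Itpr3 called higher (1 of 10, against 14.0%). Embryonic cells had only Chrm3 and Itpr2 called lower (2 of 10, against 2.61%) and none called higher, where 10% of all genes were. These 3 comparisons share the adult arrays, so their calls are not independent of each other. Their shares of all genes also apply to the counts of markers given below.

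Between tumor cells and ADM cultures, Cckar, Itpr2, Rab3d and Stx3 were lower in tumor cells (4 of 10, against 5.07% of all genes), and none was higher, where 3.28% were. ADM cultures set against embryonic cells had Itpr3 and Stx3 higher (2 of 10, against 4.55%) and Cckar and Rab3d lower (2 of 10, against 4.91%). Tumor cells set against embryonic cells had Itpr3 higher (1 of 10, against 6.53%) and Cckar, Itpr2, Rab3d and Stx3 lower (4 of 10, against 7.80%). With each array centred on housekeeping genes, the splits became 1 higher and 3 lower for ADM against embryonic cells and 0 higher and 6 lower for tumor against embryonic cells. Cyclic loess gave 1 higher and 2 lower for ADM against embryonic cells. Rab27b, Vamp2 and Vamp8 were called in none of the 6 comparisons.

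**Figure D2:**
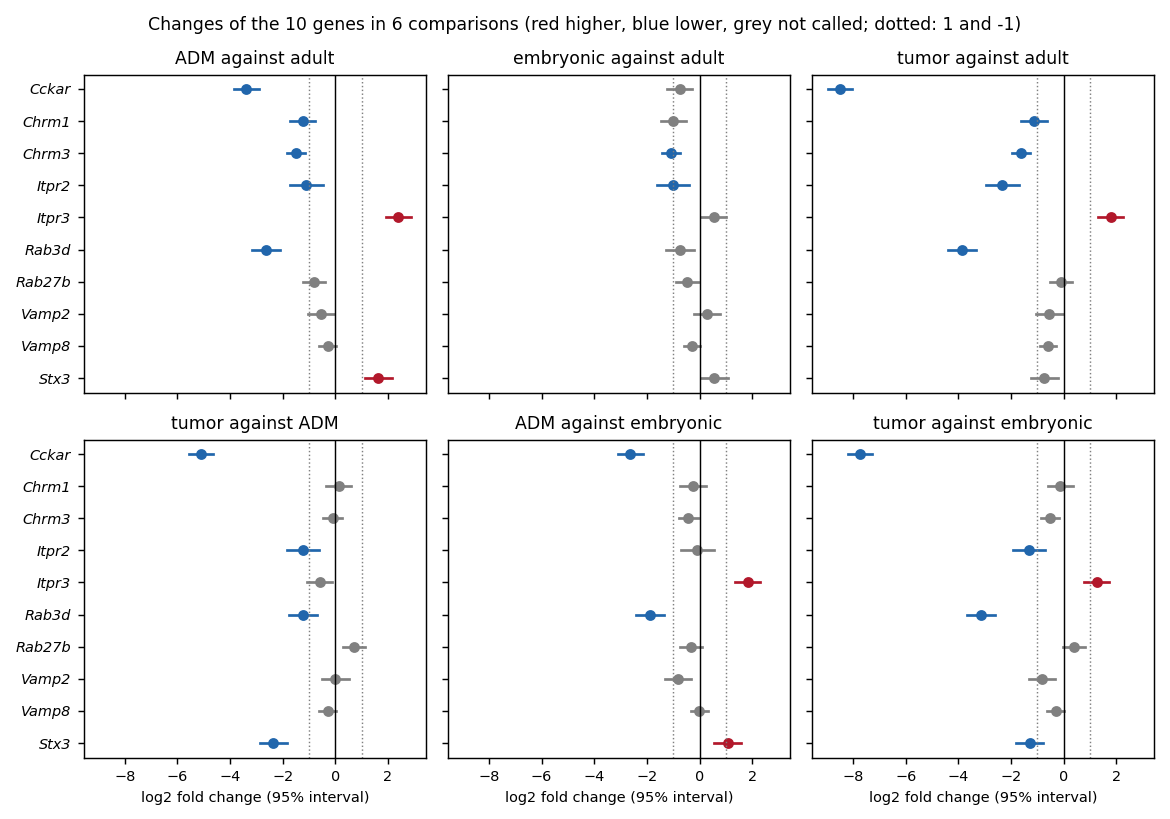
Log2 fold change of each of the 10 genes in 6 comparisons, first group minus second, with its 95% interval (bars) and dotted lines at 1 and -1. Red points were called higher, blue lower and grey not called. The fitted Cckar changes for tumor cells run to a signal at background and stand for bounds.

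Promoter sequences are shown for 3 genes that differ in direction. Against adult cells Rab3d was lower in ADM and tumor cells, and Itpr3 was higher in both on its brighter probe set. Stx3 was higher in ADM cultures and not called in tumor cells. The sequences are from RefSeq on GRCm38.p6 and run from 250 bases before to 50 bases after the annotated start, and 6 of the 10 genes had an entry. Capitals mark the E-box CANNTG, a motif bound by basic helix-loop-helix factors, the family of the acinar factors Ptf1a and Bhlha15. Rab3d lies at chr9:21918134-21918433 on the minus strand, Itpr3 at chr17:27057054-27057353 on the plus strand and Stx3 at chr19:11819354-11819653 on the minus strand.
Rab3d: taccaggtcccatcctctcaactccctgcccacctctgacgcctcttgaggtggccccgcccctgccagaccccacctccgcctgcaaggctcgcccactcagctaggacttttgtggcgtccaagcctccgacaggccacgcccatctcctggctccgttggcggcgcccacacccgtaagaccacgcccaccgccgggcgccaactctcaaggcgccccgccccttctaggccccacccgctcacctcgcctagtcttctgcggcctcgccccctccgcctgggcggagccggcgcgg
Itpr3: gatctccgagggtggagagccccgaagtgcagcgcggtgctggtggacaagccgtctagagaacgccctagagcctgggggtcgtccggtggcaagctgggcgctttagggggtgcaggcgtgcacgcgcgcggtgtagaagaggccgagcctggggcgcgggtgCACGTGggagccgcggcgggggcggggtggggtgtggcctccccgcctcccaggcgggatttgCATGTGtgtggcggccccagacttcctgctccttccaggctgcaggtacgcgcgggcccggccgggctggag
Stx3: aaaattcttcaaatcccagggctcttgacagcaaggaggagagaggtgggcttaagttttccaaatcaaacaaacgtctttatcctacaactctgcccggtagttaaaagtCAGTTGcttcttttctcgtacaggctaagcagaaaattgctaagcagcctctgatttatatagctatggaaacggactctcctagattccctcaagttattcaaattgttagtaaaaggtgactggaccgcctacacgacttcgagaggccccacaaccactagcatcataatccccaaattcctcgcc
Rab3d held no E-box in this window. Itpr3 held 2, beginning at positions -85 and -22 from the annotated start, and Stx3 held 1 at position -139. Itpr2 and Chrm3 held 1 each and Vamp8 none, so 4 of the 6 promoters had a match, as had 72.3% of 32851 mouse promoters of the same length. CANNTG is its own reverse complement, so each match counts once for both strands, and none overlapped another motif searched. None of the 6 held the RBPJ core TGGGAA, the AP-1 motif TGANTCA or the TEAD core GGAATG on either strand, which 25.6%, 7.81% and 14.7% of all promoters held. A match is a description of these letters only.

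Cckar, the cholecystokinin receptor of acinar cells, had the widest range of group means among the 10 genes. Its log2 signal was 3.72, 3.97 and 3.07 on tumor arrays, 8.93, 8.57 and 8.59 on ADM arrays, 11.17, 11.6 and 11.2 on embryonic arrays, and 12, 12.09 and 12.17 on adult arrays. No group overlapped another, and the tumor mean of 3.59 ± 0.46 (SD, n = 3) lay at background. Non-overlap is common on these arrays, from 31.6% of all genes (tumor against ADM) to 49.8% (ADM against adult). This holds for each gene below.
In ADM cultures Cckar fell by 3.39 ± 0.22 log2 units (SE, n = 3 per group) against adult cells, or 10.5-fold (adjusted p = 1.10e-07, limma). In tumor cells it was at least 354-fold lower than in adult cells (adjusted p = 2.90e-11), at least 208-fold lower than in embryonic cells (adjusted p = 5.78e-11) and at least 33.7-fold lower than in ADM cultures (adjusted p = 4.18e-09). ADM cultures were also lower than embryonic cells, by -2.63 ± 0.22 (adjusted p = 1.74e-06). Embryonic cells stood at -0.76 ± 0.22 against adult cells, with a 95% interval from -1.23 to -0.30 (adjusted p = 0.0181), short of the fold minimum. With each array centred on its 75th percentile this change was -1.16 and was called.

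The muscarinic acetylcholine receptor genes Chrm1 and Chrm3, both coupled to Gq, lay near background outside adult cells. Chrm3, the main muscarinic receptor of acinar cells, read 3.72, 3.77 and 3.8 on tumor arrays, 3.97, 3.84 and 3.81 on ADM arrays, 4.07, 4.51 and 4.31 on embryonic arrays, and 5.11, 5.45 and 5.59 on adult arrays. Every adult array lay above every other array. Chrm3 fell by 1.62 ± 0.16 in tumor cells (adjusted p = 3.19e-06), by 1.51 ± 0.16 in ADM cultures (adjusted p = 9.21e-06) and by 1.09 ± 0.16 in embryonic cells (adjusted p = 0.000239), each against adult cells. The embryonic call was lost without embryonic replicate 1 (-0.97) and without adult replicate 3 (-0.98), in both cases by the fold minimum and not the p. Tumor cells and ADM cultures, neighbours in the order of levels, differed by -0.11 with a 95% interval from -0.46 to 0.24 (adjusted p = 0.777). ADM cultures stood at -0.42 against embryonic cells (95% interval -0.77 to -0.07, adjusted p = 0.0974), and tumor cells at -0.53 (95% interval -0.88 to -0.18, adjusted p = 0.0256). With housekeeping centring the change of tumor against embryonic cells was -1.11 (adjusted p = 0.000135, limma) and was called.

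Chrm1 read 3.89, 4.19 and 3.72 on tumor arrays, 3.88, 3.83 and 3.73 on ADM arrays, 4.0, 4.04 and 4.15 on embryonic arrays, and 5.66, 4.64 and 4.87 on adult arrays. The adult arrays lay above all others, with replicate 1 the highest of them. Chrm1 fell by 1.24 ± 0.22 in ADM cultures (adjusted p = 0.000718) and by 1.12 ± 0.22 in tumor cells (adjusted p = 0.00128) against adult cells. Without adult replicate 1 these values were -0.94 and -0.82, and neither was called. Embryonic cells stood at -0.99 ± 0.22 (adjusted p = 0.00496), just short of the fold minimum, and were called lower under quantile normalization (-1.30), cyclic loess (-1.04), housekeeping centring (-1.09), 75th percentile centring (-1.39) and array weights (-1.03), and without embryonic replicate 3 (-1.04), adult replicate 2 (-1.20) or adult replicate 3 (-1.09). On the other Chrm1 probe set, which lay under background, embryonic cells stood at -0.04 against adult cells (adjusted p = 0.849, limma). The 3 groups other than adult were not called apart, with tumor against ADM at 0.12 (95% interval -0.36 to 0.60), ADM against embryonic at -0.25 (-0.73 to 0.23) and tumor against embryonic at -0.13 (-0.61 to 0.35).

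The 2 inositol trisphosphate receptor genes, whose products are the calcium release channels of the apical endoplasmic reticulum, moved in opposite directions in ADM and tumor cells. In tumor cells the rise of Itpr3 was called on the brighter of its 2 probe sets and not on the other. Itpr2 read 5.27, 4.16 and 4.58 on tumor arrays, 5.93, 5.92 and 5.85 on ADM arrays, 5.6, 5.92 and 6.45 on embryonic arrays, and 7.39, 7.04 and 6.58 on adult arrays. Tumor arrays were the lowest and adult arrays the highest, while ADM and embryonic arrays overlapped. Against adult cells Itpr2 fell by 2.33 ± 0.29 in tumor cells (adjusted p = 2.11e-05), by 1.10 ± 0.29 in ADM cultures (adjusted p = 0.00883) and by 1.01 ± 0.29 in embryonic cells (adjusted p = 0.0179). Tumor cells were also lower than ADM cultures, by -1.23 ± 0.29 (adjusted p = 0.0097), and lower than embryonic cells, by -1.32 ± 0.29 (adjusted p = 0.00354).
Several of these Itpr2 calls rested on single arrays. The embryonic call was lost without embryonic replicate 1 (-0.82, adjusted p = 0.0837, limma), without embryonic replicate 2 (-0.98, adjusted p = 0.0519), and also when adult replicate 1 was left out (-0.82, adjusted p = 0.0678) or adult replicate 2 (-0.995, adjusted p = 0.0458, the fold being just under the minimum). The ADM call was lost without adult replicate 1 (-0.91, adjusted p = 0.0391), and the call of tumor cells against ADM cultures was lost without tumor replicate 2 (-0.98, adjusted p = 0.0528). ADM cultures and embryonic cells differed by -0.09, with a 95% interval from -0.71 to 0.53 (adjusted p = 0.916).

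Itpr3 read 7.79, 6.85 and 7.11 on tumor arrays, 7.59, 8.03 and 7.91 on ADM arrays, 5.85, 6.16 and 6.01 on embryonic arrays, and 5.55, 5.29 and 5.56 on adult arrays. On this probe set, the brighter of 2, all 6 arrays of cultured cells lay above all 6 arrays of freshly isolated cells. Tumor and ADM arrays overlapped. Against adult cells Itpr3 rose by 2.38 ± 0.22 in ADM cultures, or 5.19-fold (adjusted p = 2.60e-06), and by 1.78 ± 0.22 in tumor cells, or 3.44-fold (adjusted p = 2.17e-05). It was also higher than in embryonic cells, by 1.84 ± 0.22 in ADM cultures (adjusted p = 4.98e-05) and by 1.24 ± 0.22 in tumor cells (adjusted p = 0.000805).
The call of tumor cells against embryonic cells was lost with housekeeping centring (0.67, adjusted p = 0.0529) and without tumor replicate 1 (0.97). Embryonic cells stood at 0.54 against adult cells (95% interval 0.07 to 1.01, adjusted p = 0.0815), and tumor cells at -0.59 against ADM cultures (95% interval -1.07 to -0.12, adjusted p = 0.0944). Genes of fibroblasts and stellate cells were also high in ADM cultures, with 9 of 12 called higher and 1 lower against adult cells. Their summed linear signal was 167 to 212 on tumor arrays, 2895 to 6958 on ADM arrays, 7159 to 11463 on embryonic arrays and 1259 to 1313 on adult arrays. In tumor cells the group means of Col1a2, Dcn, Lum, Pdgfra, Des, Postn and Thy1 lay at or under background. Those of Acta2 (5.75), Pdgfrb (4.46), Col3a1 (4.13), Col1a1 (3.66) and Rgs5 (3.623) lay above it. The part of fibroblasts and stellate cells in the Itpr3 values was not tested.

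Rab3d, a GTPase on the zymogen granule membrane, followed the same order of groups as Cckar. It read 6.17, 5.16 and 5.04 on tumor arrays, 6.94, 6.53 and 6.63 on ADM arrays, 8.5, 8.79 and 8.48 on embryonic arrays, and 9.3, 9.27 and 9.43 on adult arrays. No 2 groups overlapped, and tumor replicate 1 was the closest to another group. Rab3d fell by 3.88 ± 0.25 in tumor cells, or 14.7-fold (adjusted p = 5.42e-08), and by 2.63 ± 0.25 in ADM cultures, or 6.20-fold (adjusted p = 3.12e-06), against adult cells. Against embryonic cells it was lower by -3.13 ± 0.25 in tumor cells (adjusted p = 5.62e-07) and by -1.89 ± 0.25 in ADM cultures (adjusted p = 0.000113). Tumor cells were lower than ADM cultures by -1.24 ± 0.25 (adjusted p = 0.00365). Embryonic cells stood at -0.74 against adult cells (95% interval -1.28 to -0.21, adjusted p = 0.0389), a change called with 75th percentile centring (-1.14).
Markers of acinar cells followed the same order of groups as Cckar and Rab3d. Of the 12 measured, 12 were called lower in tumor cells, 10 in ADM cultures and 5 in embryonic cells against adult cells. Their summed linear signal was 159 to 209 on tumor arrays, 15256 to 22204 on ADM arrays, 41970 to 52011 on embryonic arrays and 63855 to 65910 on adult arrays. Embryonic cells, against adult cells, also had 8 of 8 endothelial, 11 of 12 fibroblast and stellate, 7 of 12 immune and 1 of 3 erythroid markers called higher. The part of the mix of cells in the values of Cckar, Chrm3, Itpr2 and Rab3d was not tested.

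Rab27b, another GTPase of secretory granules, was called in none of the 6 comparisons. Its signal was 5.77, 5.53 and 5.49 on tumor arrays, 4.64, 5.17 and 4.85 on ADM arrays, 5.29, 5.23 and 5.08 on embryonic arrays, and 5.99, 5.31 and 5.79 on adult arrays. ADM arrays were the lowest and overlapped the embryonic ones, and tumor and adult arrays overlapped. ADM cultures stood at -0.81 against adult cells (95% interval -1.23 to -0.39, adjusted p = 0.0052, limma), under the fold minimum. That change was called with quantile normalization (-1.24), cyclic loess (-1.19), housekeeping centring (-1.28), 75th percentile centring (-1.22) and without adult replicate 2 (-1.003). Tumor cells stood at -0.10 against adult cells (95% interval -0.52 to 0.32, adjusted p = 0.72), at 0.71 against ADM cultures (95% interval 0.29 to 1.13, adjusted p = 0.0235) and at 0.40 against embryonic cells (95% interval -0.02 to 0.81, adjusted p = 0.163). Against adult cells, embryonic cells stood at -0.50 (95% interval -0.91 to -0.08, adjusted p = 0.0699), and ADM cultures at -0.31 against embryonic cells (95% interval -0.73 to 0.10, adjusted p = 0.357).

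Stx3, a syntaxin that takes part in fusion of zymogen granules, peaked in ADM cultures and was lowest in tumor cells. Its log2 signal was 5.46, 4.84 and 4.5 on tumor arrays, 7.34, 7.33 and 7.23 on ADM arrays, 5.98, 6.43 and 6.28 on embryonic arrays, and 5.95, 5.81 and 5.29 on adult arrays. All 3 ADM arrays lay above all other arrays, and tumor and adult arrays overlapped. In ADM cultures Stx3 rose by 1.62 ± 0.24 against adult cells, or 3.07-fold (adjusted p = 0.000139), and by 1.07 ± 0.24 against embryonic cells (adjusted p = 0.00599). In tumor cells it was lower than in ADM cultures by -2.37 ± 0.24, or 5.16-fold (adjusted p = 1.27e-05), and lower than in embryonic cells by -1.30 ± 0.24 (adjusted p = 0.00106).
The higher level in ADM than in embryonic cells was no longer called with cyclic loess (0.93), housekeeping centring (0.69, adjusted p = 0.0773) or without embryonic replicate 1 (0.95). Tumor cells stood at -0.75 against adult cells (95% interval -1.26 to -0.24, adjusted p = 0.0238), and were called lower with quantile normalization (-1.10), cyclic loess (-1.26), housekeeping centring (-1.42), 75th percentile centring (-1.09) and without tumor replicate 1 (-1.01). The embryonic value against adult cells was 0.55 (95% interval 0.03 to 1.06, adjusted p = 0.1). Of 8 measured markers of ducts, 4 were called higher and 3 lower in tumor cells, 6 and 0 in ADM cultures, and 4 and 0 in embryonic cells, against adult cells. Group means of Krt20, Cftr and Epcam were highest in ADM cultures, those of Krt19, Krt7 and Car2 in tumor cells, that of Sox9 in embryonic cells and that of Muc1 in adult cells. The summed linear signal of the 8 markers was 3044 to 3510 on tumor arrays, 5610 to 7172 on ADM arrays, 1881 to 2475 on embryonic arrays and 2140 to 2255 on adult arrays. The relation of these markers to Stx3 was not tested.

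Neither granule VAMP gene was called in any of the 6 comparisons. Vamp8, which encodes the main granule VAMP of acinar cells, read 10.22, 9.78 and 9.75 on tumor arrays, 10.19, 10.22 and 10.24 on ADM arrays, 10.15, 10.3 and 10.23 on embryonic arrays, and 10.51, 10.53 and 10.51 on adult arrays. The adult arrays lay above all others by a small margin. Tumor cells stood at -0.60 ± 0.15 against adult cells (95% interval -0.92 to -0.28, adjusted p = 0.00551), under the fold minimum. ADM cultures stood at -0.30 (95% interval -0.62 to 0.02, adjusted p = 0.129) and embryonic cells at -0.29 (95% interval -0.61 to 0.03, adjusted p = 0.155) against adult cells. The other comparisons of Vamp8 gave tumor against ADM at -0.30 (-0.62 to 0.02), tumor against embryonic at -0.31 (-0.63 to 0.01) and ADM against embryonic at -0.01 (-0.33 to 0.31). Of the alternative scalings, housekeeping centring called 1 of them, tumor against adult cells, at -1.27, and the others called none.

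Vamp2, a VAMP shared with neurons and endocrine cells, read 6.33, 5.96 and 5.93 on tumor arrays, 6.04, 5.88 and 6.31 on ADM arrays, 7.15, 6.87 and 6.66 on embryonic arrays, and 6.06, 6.96 and 6.84 on adult arrays. Adult replicate 1 lay among the cultured cells, apart from the other adult arrays. Tumor cells stood at -0.55 against adult cells (95% interval -1.05 to -0.04, adjusted p = 0.0848) and at -0.82 against embryonic cells (95% interval -1.32 to -0.32, adjusted p = 0.0186). ADM cultures stood at -0.54 against adult cells (95% interval -1.05 to -0.04, adjusted p = 0.0868) and at -0.82 against embryonic cells (95% interval -1.32 to -0.31, adjusted p = 0.0267). The change of embryonic against adult cells was 0.27 (95% interval -0.23 to 0.78, adjusted p = 0.393), and tumor cells at -0.0033 against ADM cultures (95% interval -0.51 to 0.50, adjusted p = 0.994).
Vamp2 was called lower against adult cells with quantile normalization in ADM (-1.02) and tumor cells (-1.02), with housekeeping centring in both (-1.02 and -1.21) and with cyclic loess in tumor cells (-1.06). Against embryonic cells it was called lower with housekeeping centring in ADM (-1.20) and tumor cells (-1.40), and with cyclic loess in tumor cells (-1.06). Of 10 measured endocrine markers, all 10 were called higher in embryonic than in adult cells, and their summed linear signal was 175 to 286 on tumor arrays, 969 to 1827 on ADM arrays, 9781 to 12290 on embryonic arrays and 2040 to 2987 on adult arrays. In tumor cells the group means of Chgb, Pcsk1, Scg2 and Scg3 lay at or under background. Those of Gcg (6.06), Ppy (4.64), Ins2 (4.60), Sst (4.52), Iapp (4.42) and Chga (4.38) lay above it. Of 9 neuronal and Schwann markers, 4 were called higher in embryonic than in adult cells, with summed linear signal of 513 to 531 on embryonic and 110 to 135 on adult arrays. The part of either cell type in the Vamp2 signal was not tested.

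Differences between 2 genes on the same array are left as they are by centring, which shifts every gene on an array alike, and they show unequal change without ranking the genes. Quantile normalization and cyclic loess can move 2 genes by different amounts, and the differences were not recomputed with them. Itpr3 minus Itpr2 averaged 2.58 ± 0.10 log2 units on tumor arrays, 1.94 ± 0.25 on ADM arrays, 0.02 ± 0.40 on embryonic arrays and -1.54 ± 0.45 on adult arrays (SD, n = 3 each). The groups did not overlap in any of the 6 comparisons of this difference. In each of them a two-sided exact permutation test gave p = 0.1, the smallest that 3 against 3 arrays can give, or 0.1125 adjusted over the 18 tests of this kind.
Rab3d minus Rab27b averaged -0.14 ± 0.47 on tumor arrays, 1.81 ± 0.47 on ADM arrays, 3.39 ± 0.18 on embryonic arrays and 3.64 ± 0.33 on adult arrays. Embryonic and adult arrays overlapped (exact permutation p = 0.4, 0.424 adjusted), and the other 5 comparisons did not. Stx3 minus Vamp8 averaged -4.98 ± 0.25 on tumor arrays, -2.92 ± 0.08 on ADM arrays, -4.00 ± 0.16 on embryonic arrays and -4.83 ± 0.34 on adult arrays. Here tumor and adult arrays overlapped (exact permutation p = 0.5, 0.5 adjusted), and the other 5 comparisons did not. With 3 arrays a group none of the 18 tests could pass a threshold of 0.05.

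**Figure D3:**
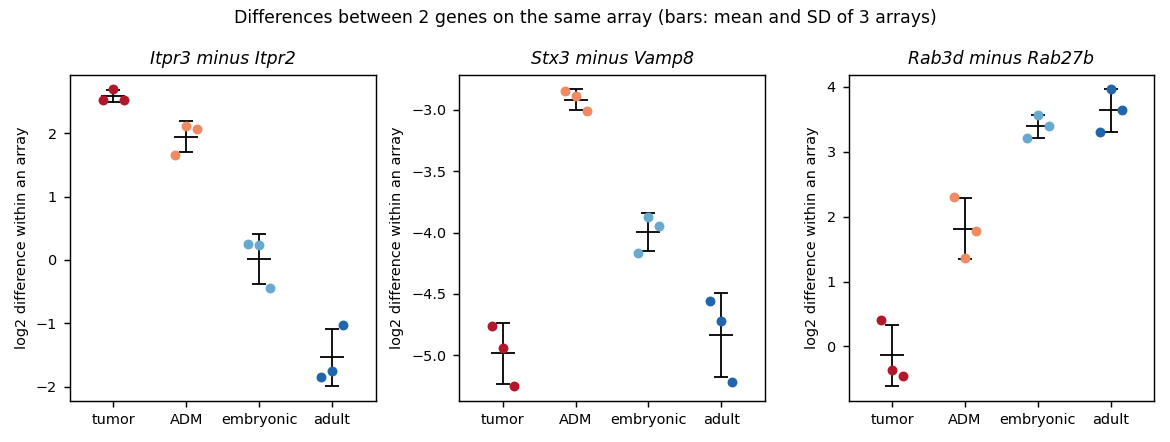
Log2 difference between 2 genes on the same array, 1 point an array, with the mean and SD of 3 arrays (bars). Itpr3 minus Itpr2 separates all 4 groups, with means of 2.58 in tumor cells and -1.54 in adult cells.

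Rab3d, Itpr3 and Chrm1 had a second probe set with a single symbol, which was compared after the data had been seen. For Rab3d the second set averaged 4.47 in tumor cells, 5.17 in ADM cultures, 6.91 in embryonic cells and 7.96 in adult cells, the same order of groups. Its changes against adult cells were -3.48 in tumor cells (adjusted p = 1.50e-07, limma), -2.78 in ADM cultures (adjusted p = 1.97e-06) and -1.05 in embryonic cells (adjusted p = 0.00675), all called. The change of tumor cells against ADM cultures was -0.70 on this set (adjusted p = 0.0814) and -0.97 with the mean of both sets, and neither was called.
For Itpr3 the second set averaged 5.50 in tumor cells, 6.23 in ADM cultures, 4.51 in embryonic cells and 4.87 in adult cells. ADM cultures were called higher than adult cells, by 1.36 ± 0.25 (adjusted p = 0.00075), and higher than embryonic cells, by 1.72 ± 0.25 (adjusted p = 0.000234). Tumor cells were not called on it, at 0.63 against adult cells (adjusted p = 0.0626) and 0.99 against embryonic cells (adjusted p = 0.00858). Tumor and adult arrays overlapped on it, tumor replicate 2 (4.95) lying under adult replicate 1 (5.15). On this set embryonic cells were at -0.36 against adult cells, the other sign from the brighter set, and neither set was called.
For Chrm1 the second set lay at or under background in all 4 groups, with means of 3.06 in tumor cells, 2.73 in ADM cultures, 3.15 in embryonic cells and 3.19 in adult cells. On it ADM cultures stood at -0.46, tumor cells at -0.14 and embryonic cells at -0.04 against adult cells, none of them called. With the mean of both Chrm1 sets, ADM cultures stood at -0.85 and tumor cells at -0.63 against adult cells, and neither was called.

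**Figure D4:**
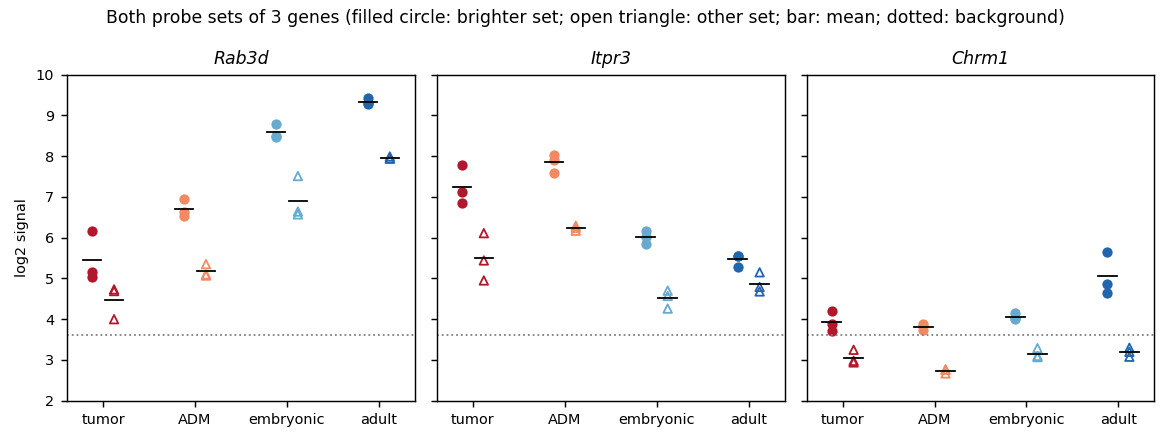
Log2 signal of both probe sets of Rab3d, Itpr3 and Chrm1 on each array (filled circles: brighter set, open triangles: other set, bars: mean of 3 arrays, dotted line: background at 3.62). The second set of Chrm1 lies under background in every group, at means of 2.73 to 3.19.

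Of 119 other genes of the pathway in 5 lists, 113 were measured. In ADM cultures against adult cells 14 were called higher and 17 lower, in tumor cells 11 and 19, and in embryonic cells 13 and 12. Among all genes the shares called higher and lower were 12.5% and 4.22%, 14.0% and 5.96%, and 10% and 2.61%, in that order. These shares also apply to the counts of each list against adult cells given below. The medians over the 113 genes were -0.09, -0.08 and -0.02, beside -0.11, -0.09 and -0.09 over all genes. The medians of the 10 genes were -0.96, -0.94 and -0.62 in the same comparisons. For tumor cells against ADM cultures 0 were called higher and 6 lower, for ADM against embryonic cells 4 and 15, and for tumor against embryonic cells 6 and 17. In the same order, the shares of all genes were 3.28% and 5.07%, 4.55% and 4.91%, and 6.53% and 7.80%. Scaling moved the splits of the pathway genes. For ADM cultures against adult cells they were 11 and 27 with housekeeping centring and 11 and 24 with 75th percentile centring, and for tumor against adult cells 6 and 41 with housekeeping centring. For embryonic against adult cells they were 8 and 18 with quantile normalization, 8 and 13 with cyclic loess, 9 and 13 with housekeeping centring and 3 and 19 with 75th percentile centring. For ADM against embryonic cells they were 2 and 19 with housekeeping centring. For tumor against embryonic cells they were 3 and 16 with quantile normalization, 3 and 19 with cyclic loess and 2 and 31 with housekeeping centring.

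Among 13 other measured receptors, 1 was called higher and 4 lower in ADM cultures, 0 and 4 in tumor cells, and 1 and 5 in embryonic cells, against adult cells. Grpr, the receptor for gastrin-releasing peptide and like Cckar coupled to Gq, had a mean of 3.86 in tumor cells, 3.92 in ADM cultures, 5.74 in embryonic cells and 8.96 in adult cells. Its change against adult cells was -5.10 ± 0.22 in tumor cells (adjusted p = 1.70e-09, limma), -5.03 ± 0.22 in ADM cultures (adjusted p = 4.11e-09) and -3.21 ± 0.22 in embryonic cells (adjusted p = 4.00e-07). In embryonic cells, where Cckar was not called, the difference between the changes of the 2 receptors was not tested. The receptor genes Sstr2 (somatostatin), Vipr2 (vasoactive intestinal peptide) and Cckbr (gastrin and cholecystokinin) were also called lower in all 3 comparisons. Sstr2 stood at -2.54 in tumor cells, -2.24 in ADM cultures and -1.82 in embryonic cells. Vipr2 was at least 3.95-fold lower in tumor cells, and stood at -1.84 in ADM cultures and -1.74 in embryonic cells. For Cckbr, at or under background outside adult cells, the fold was at least 1.54 in each. Adcyap1r1, the receptor for the peptide PACAP, was called higher in ADM cultures at 1.56 ± 0.28 (adjusted p = 0.000688) and in embryonic cells at 1.15 ± 0.28 (adjusted p = 0.00818), and stood at -0.09 in tumor cells, not called. In the comparisons without adult cells, Adcyap1r1 was called lower in tumor cells than in ADM cultures (-1.65) and embryonic cells (-1.24). Grpr was called lower than in embryonic cells in both tumor cells (-1.88) and ADM cultures (-1.82).

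Gq signalling was measured by 17 genes, of which ADM cultures had 4 called higher and 4 lower than adult cells, tumor cells 3 and 3, and embryonic cells 2 and 1. Gna14, a Gq family alpha subunit, was at least 6.24-fold lower in tumor cells (adjusted p = 2.80e-06) and at least 6.24-fold lower in ADM cultures (adjusted p = 2.35e-06). In embryonic cells it stood at -1.87 ± 0.27 (adjusted p = 0.000174). The phospholipase gene Plcb1 was lower by -1.98 ± 0.24 in tumor cells and -2.52 ± 0.24 in ADM cultures. In embryonic cells Plcb1 stood at -0.85, not called. Its paralog Plcb4 was at least 3.28-fold lower in tumor cells and stood at -1.38 in ADM cultures, both called, and at -0.08 in embryonic cells, not called. Prkcd, a protein kinase C gene, was called higher in all 3 groups, by 1.56 ± 0.19 in tumor cells, 2.33 ± 0.19 in ADM cultures and 1.01 ± 0.19 in embryonic cells. Prkca, another kinase of this family, was called higher by 2.08 ± 0.23 in tumor cells and 1.51 ± 0.23 in ADM cultures, and stood at 0.68 in embryonic cells, not called. Rgs2, a brake on Gq, rose against adult cells by 2.44 ± 0.57 in ADM cultures (adjusted p = 0.00435) and by 1.70 ± 0.57 in embryonic cells (adjusted p = 0.0383), and stood at 0.02 in tumor cells, not called. Its tumor arrays were widely spread, from 6.48 to 9.53 around a mean of 7.59 ± 1.68 (SD, n = 3).
In the comparisons without adult cells, Rgs2 was called lower in tumor cells than in ADM cultures (-2.42) and embryonic cells (-1.68), though tumor and embryonic arrays overlapped. Rgs4, of the same family, was at least 1.84-fold lower in tumor cells than in ADM cultures. Against embryonic cells, ADM cultures were called higher for Prkcd (1.32) and lower for Plcb1 (-1.67), Plcb4 (-1.30) and the kinase gene Prkce (-1.29). Tumor cells were called higher than embryonic cells for Prkca (1.40), and lower for Plcb4, by at least 3.11-fold, and for Itpkb (-1.15), whose product phosphorylates inositol trisphosphate.

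Of 22 measured calcium handling genes, 1 was called higher and 3 lower in ADM cultures, 1 and 2 in tumor cells, and 2 and 1 in embryonic cells, against adult cells. Atp2b1, a plasma membrane calcium pump, was called higher in all 3 groups, by 2.22 ± 0.25 in tumor cells, 1.49 ± 0.25 in ADM cultures and 1.18 ± 0.25 in embryonic cells (adjusted p = 0.00362). Atp2b4, another pump of this family, rose by 2.32 ± 0.30 in embryonic cells (adjusted p = 7.32e-05), and stood at -0.79 in tumor cells and -0.07 in ADM cultures, not called. Orai2, a store-operated calcium channel gene, stood at -1.21 ± 0.27 in tumor cells, -1.21 ± 0.27 in ADM cultures and -1.67 ± 0.27 in embryonic cells, all called lower. Saraf, a regulator of store-operated entry, fell by 1.75 ± 0.19 in tumor cells and by 1.02 ± 0.19 in ADM cultures, and stood at -0.55 in embryonic cells, not called. Tpcn1, a cation channel of endosomes and lysosomes, was called lower in ADM cultures at -1.01 ± 0.17, and stood at -0.76 in tumor cells and 0.06 in embryonic cells, not called. Against embryonic cells, ADM cultures were called lower for Atp2b4 (-2.38), Tpcn1 (-1.06) and Atp2a3, a pump of the endoplasmic reticulum, by at least 1.62-fold. Tumor cells were called lower than embryonic cells for Atp2b4, by at least 5.87-fold, and Saraf (-1.20), and higher for Atp2b1 (1.04). Between tumor cells and ADM cultures limma called 0 of the 22 genes, while 6 had an unadjusted p under 0.05. The share of all genes under that unadjusted threshold was not counted, so the 6 cannot be set against it.

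Among 27 other Rab and effector genes, calls against adult cells numbered 3 higher and 4 lower in ADM cultures, 3 and 8 in tumor cells, and 4 and 3 in embryonic cells. Rab26, a granule GTPase of acinar cells, fell by 3.25 ± 0.20 in tumor cells (adjusted p = 4.60e-08), by 3.55 ± 0.20 in ADM cultures (adjusted p = 4.41e-08) and by 1.51 ± 0.20 in embryonic cells (adjusted p = 0.000112). Rab27a, the paralog of Rab27b, fell by 2.56 ± 0.22 in tumor cells (adjusted p = 9.96e-07) and by 2.12 ± 0.22 in ADM cultures (adjusted p = 8.44e-06) against adult cells, and stood at -0.35 in embryonic cells, not called. Whether these changes differ from those of Rab27b was not tested. Myrip, a Rab27 effector, was called lower in all 3 groups, at least 3.09-fold in tumor cells, at least 3.09-fold in ADM cultures and at -1.54 in embryonic cells. Sytl2, another Rab27 effector, was at least 8.85-fold higher in ADM cultures (adjusted p = 4.03e-06), at least 5.73-fold higher in tumor cells (adjusted p = 1.80e-05) and at least 1.86-fold higher in embryonic cells (adjusted p = 0.0298).
Rab8b, a GTPase of transport to the plasma membrane, was called higher in all 3 groups, by 1.62 ± 0.19 in tumor cells (adjusted p = 1.55e-05), 1.32 ± 0.19 in ADM cultures (adjusted p = 0.000132) and 2.62 ± 0.19 in embryonic cells (adjusted p = 6.52e-07). Rab4a, a GTPase of recycling endosomes, fell by 2.15 ± 0.26 in tumor cells, and stood at -0.98 in ADM cultures and -0.86 in embryonic cells, not called. Rab37 was at least 2.08-fold higher in embryonic cells, and lay under background in the other 3 groups. In the comparisons without adult cells, tumor cells were called lower than ADM cultures for the Rab27 effector Sytl5 (-2.78), Rab4a (-1.17) and the priming factor Unc13b (-1.04). Against embryonic cells, ADM cultures were called higher for Sytl2 (2.25), and lower for Rab26 (-2.04), Rab27a (-1.77) and Rab37, by at least 2.08-fold. Tumor cells were called lower than embryonic cells for Rab27a (-2.21), Sytl5 (-1.91), Sytl4 (-1.79), also a Rab27 effector, and Rab26 (-1.73).

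Of 34 other SNARE and regulator genes, ADM cultures had 5 called higher and 2 lower, 4 and 2 in tumor cells, and 4 and 2 in embryonic cells, against adult cells. Stx7, a syntaxin of endosomes, rose by 2.06 ± 0.24 in ADM cultures (adjusted p = 2.01e-05), by 1.97 ± 0.24 in tumor cells (adjusted p = 1.96e-05) and by 1.06 ± 0.24 in embryonic cells (adjusted p = 0.00508). Syt8, a synaptotagmin, rose by 2.55 ± 0.27 in tumor cells and 1.69 ± 0.27 in ADM cultures, and Vamp5 by 1.93 ± 0.31 in tumor cells and 1.5 ± 0.31 in ADM cultures. In embryonic cells Syt8 stood at -0.37 and Vamp5 at 0.88, not called. Syt3, another synaptotagmin, was called lower in all 3 groups, at least 2.91-fold in tumor cells (adjusted p = 0.000368), at -1.20 ± 0.34 in ADM cultures (adjusted p = 0.0145) and at least 2.91-fold in embryonic cells (adjusted p = 0.00416). Vamp3, a VAMP of recycling endosomes, rose by 1.27 ± 0.16 in embryonic cells, and stood at 0.96 in tumor cells and 0.78 in ADM cultures, not called. Stx2, a syntaxin of the plasma membrane, rose by 1.36 ± 0.22 in tumor cells and by 1.19 ± 0.22 in embryonic cells, and stood at 0.74 in ADM cultures, not called. In embryonic cells Snap25, the partner of Vamp2 in neurons and endocrine cells, was at least 5.13-fold higher than in adult cells (adjusted p = 2.02e-05), beside the 10 endocrine markers called higher there. Their part in it was not tested. Against embryonic cells, Snap25 was called lower in ADM cultures (-2.11) and at least 5.13-fold lower in tumor cells. Syt8 was called higher than in embryonic cells in both tumor cells (2.91) and ADM cultures (2.06), and Vamp5 in tumor cells (1.04). Between tumor cells and ADM cultures limma called 0 of the 34 genes, while 6 had an unadjusted p under 0.05. Here too the share of all genes under that threshold was not counted.

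**Figure D5:**
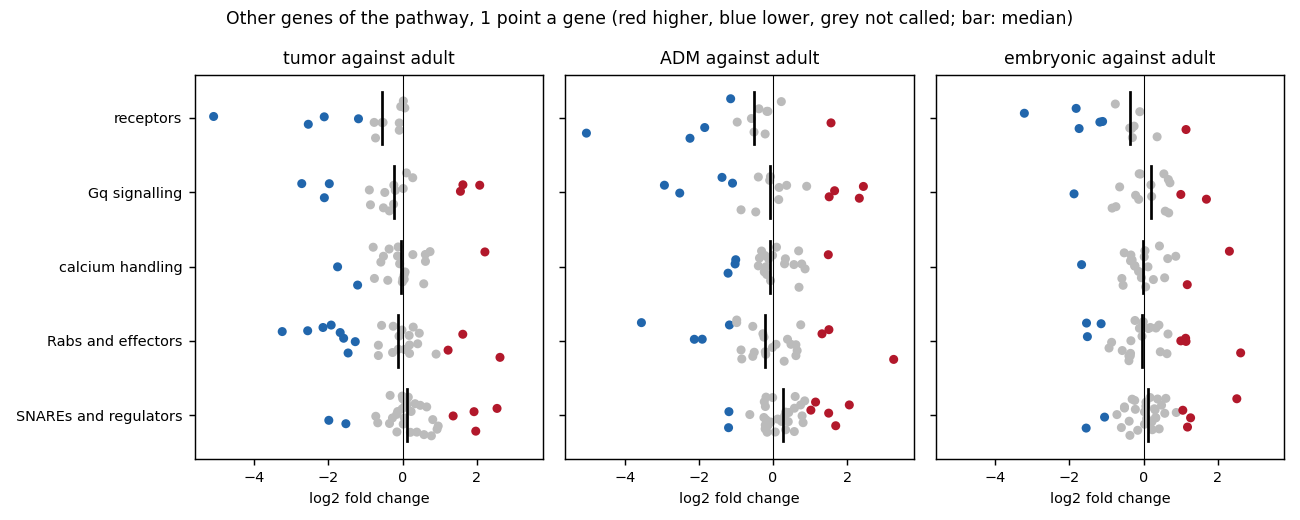
Log2 fold change of 113 other pathway genes against adult cells in 5 lists, 1 point a gene (red called higher, blue called lower, grey not called), with the list median as a black bar. The lists spread to both sides with medians between -0.55 and 0.27, and the receptor with the largest fall in each comparison is Grpr.

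The likeness of other genes to each of the 10 was described by the root mean square difference between group means over 4 groups, each profile centred on its own mean. It has no test, and genes near the top share the same 12 arrays. The genes most like Cckar were Cuzd1 (0.45 log2 units), Cel (0.46) and Rnase1 (0.47), and those most like Rab3d were Ccl11 (0.08), Entpd1 (0.09) and Adh1 (0.12). Itpr3 was most like Mdm2 (0.09), Cast (0.09) and Fblim1 (0.11), Itpr2 most like Arhgef26 (0.06), Dmxl2 (0.06) and Rab4a (0.07), and Stx3 most like Pcdhga10 (0.09), Adm (0.09) and Arg1 (0.11). Chrm3 was closest to Fn3k (0.02), Tmem120b (0.03) and C2cd4a (0.03), and Chrm1 to Tor2a (0.02), Sla2 (0.03) and Klk1b22 (0.03). Rab27b was closest to Zscan22 (0.03), Etnk1 (0.04) and Kat2a (0.05), Vamp2 to C8g, Unc5d and Cyp7b1 (0.03 each), and Vamp8 to Cacnb1, Dpp3 and Ccdc60 (0.02 each). Flat profiles such as that of Vamp8 are near many genes, so small values there carry little information.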

How the data were processed

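Biotin-labelled total RNA from 4 groups of mouse pancreatic cells, 3 samples each, was hybridised to Affymetrix arrays, per the labels' protocols. The deposited table, made by the authors, holds log2 signals of 41345 probe sets on 12 arrays, from 1.56 to 13.67. The log base was inferred from this range, and the software and normalization are not given in the sources used here. In the platform annotation 23521 probe sets had 1 gene symbol, 1814 had several and 16010 had none. Each of 22180 genes was read from its single-symbol probe set with the highest mean.

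A mean for each of the 4 groups was fitted to all 12 arrays with limma 3.58.1 (its functions lmFit, contrasts.fit and eBayes) under R 4.3.3, with 8 residual degrees of freedom and 5.02 from the prior. P-values were two-sided and adjusted over all genes (Benjamini-Hochberg). Calls needed an adjusted p under 0.05 and a log2 change of 1 or more in size. Values after ± are SE beside changes and SD beside levels. Where the dimmer group lay at or under background, the fold is given as "at least", against that level. Within-array differences were compared by exact permutation tests in SciPy 1.17.1. The limma script was checked on simulated data. Whether close paralogs share signal was not tested.

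The 10 genes, the pathway and marker lists and the tests were chosen with earlier results of these data known. All 10 genes are named in every comparison, then up to 4 called genes per pathway list and comparison with the largest absolute changes, and the 3 genes most like each of the 10 (predicted genes left out). Alternatives were quantile normalization, cyclic loess, centring on 12 housekeeping genes or on the 75th percentile, the mean of a gene's probe sets, dim genes left out, array weights, an intensity trend with a robust prior, only the groups compared, a replicate block, no minimum fold and each array left out. The other probe set of Chrm1, Itpr3 and Rab3d was added after seeing the data. With 3 arrays a group, precision is limited by their number. Slides and scan dates were not analysed here.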

Additional observations from a re-analysis of the deposited data

How the results depend on the processing

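No called change of the 10 genes turned its sign under any alternative, and 11 calls were lost under alternatives other than leaving out an array, each named beside its gene. The count of the 10 genes called in embryonic against adult cells was 2, but 5 with 75th percentile centring, 5 with no minimum fold, and 0 to 3 as each array was left out. It was 0 without embryonic replicate 1 and 1 without embryonic replicate 2 or adult replicate 1. The count of pathway genes called in tumor against adult cells was 47 with housekeeping centring. With no minimum fold, pathway genes called numbered 55 for ADM against adult, 45 for embryonic against adult, 52 for tumor against adult, 15 for tumor against ADM, 34 for ADM against embryonic and 40 for tumor against embryonic cells. Changes that were never called turned their sign as follows. Vamp2 in embryonic against adult cells stood at -0.089 with quantile normalization, -0.0066 with cyclic loess, -0.13 with 75th percentile centring, and from -0.0067 to 0.44 as arrays were left out. Vamp2 in tumor against ADM cells stood at 0.0033 with quantile normalization, 0.063 with 75th percentile centring, and from -0.13 to 0.11. Vamp8 in ADM against embryonic cells stood at 0.011 with quantile normalization, and from -0.048 to 0.027. Chrm1 stood at 0.014 in tumor against embryonic cells with quantile normalization, at -0.075 in tumor against ADM cells with housekeeping centring, and there from -0.0083 to 0.23. Rab27b stood at -0.18 in tumor against embryonic cells with housekeeping centring, and from -0.29 to 0.047 in tumor against adult cells. Itpr2 in ADM against embryonic cells ran from -0.28 to 0.14, and Itpr3 in embryonic against adult cells stood at -0.36 on its other probe set. The causes were not tested. Housekeeping centring moved the median of all genes to -0.58 in ADM, -0.76 in tumor and -0.18 in embryonic cells, and 75th percentile centring to -0.52, -0.43 and -0.49, against adult cells, and centring moved every gene of a comparison by that shift from -0.11, -0.09 and -0.09. For tumor against ADM, ADM against embryonic and tumor against embryonic cells the housekeeping medians were -0.14, -0.38 and -0.51, against 0.06, 0.0033 and 0.07 as deposited. Same-numbered arrays of different groups correlated in their deviations from group means at -0.05 to 0.13 (18 pairs), and differently numbered arrays at -0.12 to 0.11 (36 pairs). No pairing by number was seen in these overlapping ranges. With 3 arrays a group they cannot exclude pairing, also between only some of the groups. The replicate block changed none of the 60 calls, and the genes called stayed 7 in ADM, 6 in tumor and 2 in embryonic cells against adult cells. Rescaling raised these counts. In the same order they were 9, 8 and 3 with quantile normalization and 8, 8 and 3 with cyclic loess. Housekeeping centring gave 9, 9 and 3, and 75th percentile centring 8, 7 and 5. The mean of a gene's probe sets gave 6, 5 and 2. As each array was left out, the count ran from 5 to 8 in ADM and from 5 to 7 in tumor cells. Without adult replicate 1 it was 5 in ADM and 5 in tumor cells. Chrm1 and Chrm3 lie near background outside adult cells, which limits their folds.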
